A study of Homo sapiens with 30 samples.

Results

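The 10 genes described here encode the receptors, kinases, transcription factor, targets and inhibitors of the pathway by which the cytokine LIF acts on pluripotent cells: LIFR, IL6ST, IL6R, JAK1, JAK2, STAT3, SOCS3, SOCS2, PIM1 and GBX2. They were chosen by their symbols among the 28307 genes listed in every count table, and all 10 were found and passed the filter on low counts in every comparison. All are protein-coding, and all lie on autosomes. Counts per library ranged from 37 (GBX2) to 22131 (IL6ST) among the 10 genes.

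LIF binds its own receptor LIFR, which pairs with gp130, the product of IL6ST. Interleukin-6 instead binds IL6R, which pairs with the same gp130. The paired receptors activate the kinases JAK1 and JAK2, which phosphorylate the transcription factor STAT3, and STAT3 switches on SOCS3, PIM1 and other genes. SOCS3 and SOCS2 are inhibitors made in response to cytokines, so that the pathway limits itself. LIF with STAT3 activity maintains mouse embryonic stem cells, and LIF is an ingredient of media for naive human embryonic stem (hES) cells, which resemble the preimplantation epiblast. Primed hES cells resemble the later, postimplantation epiblast.

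All libraries came from H9, an established hES cell line, and measured total RNA depleted of ribosomal RNA. They form 10 groups of 3, with 31.2 to 65.6 M counts per library. Primed WT is the unmodified line in mTeSR1 on Matrigel, NaiveCult WT the same line reset with the NaiveCult protocol, and PXGL WT the line reset in PXGL medium, which holds the MEK inhibitor PD0325901, the tankyrase inhibitor XAV939, the kinase inhibitor Gö6983 and LIF. The sources used here do not give the composition of NaiveCult medium. XACT KO is a set of 3 NaiveCult clones that have the start sites of XACT deleted, and XIST KO is 1 homozygous knockout clone in PXGL, sequenced as 3 technical replicates. CRISPRi UT and CRISPRi Dox are 3 PXGL clones that all carry a doxycycline-inducible dCas9-KRAB repressor and a guide against the XIST promoter, without and with doxycycline. No group received doxycycline without that repressor, so an effect of doxycycline itself and one of the loss of XIST cannot be told apart. siScr, siSPEN1 and siSPEN2 are naive PXGL cells after repeated transfection with a scrambled siRNA, with a mix of 1 siRNA against SPEN or with a mix of 2 others. Mouse embryonic fibroblasts served as feeders for all naive cells but not for the primed ones. The naive state and the presence of feeders therefore cannot be told apart in comparisons with Primed WT.

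The targeted genes were checked first. SPEN was 50.7% lower in siSPEN1 and 52.4% lower in siSPEN2 than in siScr, XACT 96.1% lower in XACT KO, and XIST 99.96% lower in XIST KO and 83.5% lower in CRISPRi Dox, with no overlap of the ranges. The 8 naive markers summed to 2154 to 3271 CPM (counts scaled to the library total) in naive libraries against 26.2 to 31.9 in Primed WT, where KLF17, DNMT3L and ARGFX were at 0. The 7 primed markers summed to 4792 to 5142 CPM in Primed WT against 110.0 to 199.9 elsewhere. The 7 trophectoderm markers also differed (257 to 394 CPM in naive libraries, 18.0 to 20.6 in Primed WT), as did the 6 hypoblast markers (22.3 to 63.8 and 2.59 to 3.37 CPM) and the 8 fibroblast markers (141 to 143 CPM in PXGL WT, 73.9 to 92.4 in NaiveCult WT, 159 to 163 in Primed WT). Between PXGL WT and NaiveCult WT most single fibroblast markers did not follow their sum (edgeR, adjusted p below 0.05). Of the 8, 6 were lower and 2 higher in PXGL WT than in NaiveCult WT. Against Primed WT, 6 were lower and 1 higher in PXGL WT, and 4 lower and 3 higher in NaiveCult WT. The part of the markers in the differences between states was not tested.

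Levels below are CPM with the SD over 3 libraries, and fold changes are log2 values from edgeR with TMM scaling. A gene passed when its Benjamini-Hochberg adjusted p over all genes tested was below 0.05. Since these are bulk samples, fewer cells with a transcript and less transcript per cell cannot be told apart.

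The receptor genes IL6R and IL6ST varied most between groups. IL6R (hg38 chr1:154405193-154469450, plus strand) spanned 41.9-fold between its highest and lowest group mean, IL6ST (hg38 chr5:55935095-55995022, minus strand) 14.1-fold and LIFR (hg38 chr5:38474668-38608354, minus strand) 6.52-fold. IL6R was highest in CRISPRi Dox at 274 ± 13 CPM, followed by CRISPRi UT (244 ± 3.2), siSPEN1 (237 ± 1.9), XIST KO (231 ± 4.8), siSPEN2 (223 ± 3.4), PXGL WT (198 ± 4.0) and siScr (179.9 ± 6.6). The NaiveCult groups came below all of these, with XACT KO at 125 ± 8.2 and NaiveCult WT at 114 ± 6.2, and Primed WT was last at 6.53 ± 0.53. In this order the ranges of siSPEN1 and XIST KO, XIST KO and siSPEN2, and the NaiveCult groups overlapped.

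IL6ST was highest in NaiveCult cells, at 475 ± 39.8 CPM in NaiveCult WT and 444 ± 36 in XACT KO, whose ranges overlapped. The PXGL groups followed, from siSPEN1 (372 ± 17), siSPEN2 (344 ± 13), CRISPRi Dox (334 ± 6.5), CRISPRi UT (315 ± 7.2), XIST KO (298 ± 1.3) and PXGL WT (284.4 ± 6.9) to siScr (203 ± 5.5). Of these neighbors the ranges overlapped between siSPEN2 and CRISPRi Dox. Primed WT lay far below, at 33.6 ± 1.2.

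LIFR had a different order. Primed WT (90.3 ± 2.3 CPM), XACT KO (82.4 ± 11) and NaiveCult WT (72.6 ± 10.5) were highest, each overlapping the next. CRISPRi Dox (37.4 ± 1.7), XIST KO (27.9 ± 0.084), CRISPRi UT (24.97 ± 1.3), siSPEN2 (20.3 ± 1.3), PXGL WT (19.0 ± 0.23), siSPEN1 (18.8 ± 1.7) and siScr (13.9 ± 0.61) followed. The ranges of siSPEN2, PXGL WT and siSPEN1 overlapped in this order. In all 7 PXGL groups LIFR was thus below every primed and NaiveCult library.

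**Figure D1:**
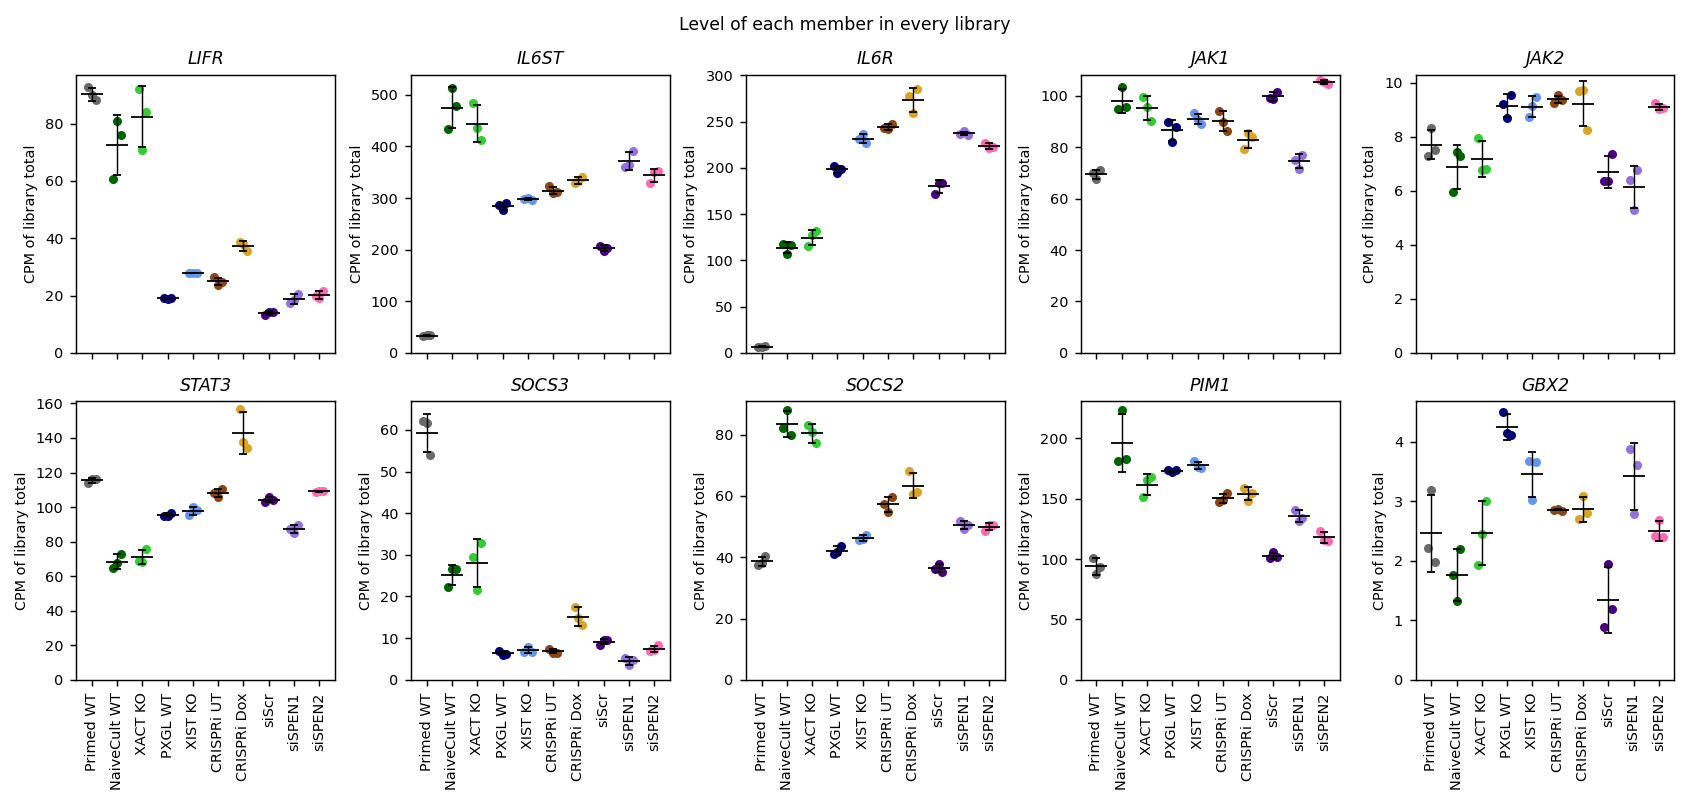
Each panel plots CPM of the library total (linear axis from 0) of 1 gene in the 30 libraries; points are libraries, the horizontal mark and whiskers the mean ± SD of the 3 libraries of a group. IL6R and IL6ST sit lowest in Primed WT (6.53 and 33.6 CPM), where SOCS3 sits highest (59.2 CPM), and JAK1 and JAK2 span least (1.52-fold each between group means).

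The kinases and the transcription factor varied less. JAK1 (hg38 chr1:64833223-65067754, minus strand) ranged from 69.5 ± 1.8 CPM in Primed WT and 74.5 ± 2.7 in siSPEN1 to 105 ± 0.90 in siSPEN2. Between those ends siScr, NaiveCult WT, XACT KO, XIST KO, CRISPRi UT, PXGL WT and CRISPRi Dox ran from 99.7 down to 82.9 CPM, with each neighbor overlapping the next. On the same strand 4.91% of JAK1 exon bases are shared with LINC01359, and reads there could have been lost. JAK2 (hg38 chr9:4984390-5129948, plus strand) was at 9.12 to 9.39 CPM in CRISPRi UT, CRISPRi Dox, PXGL WT, XIST KO and siSPEN2, and at 6.16 to 7.71 CPM in Primed WT, XACT KO, NaiveCult WT, siScr and siSPEN1. Within each of these sets every neighbor overlapped. STAT3 (hg38 chr17:42313324-42388540, minus strand) spanned 2.09-fold, from CRISPRi Dox (143 ± 12 CPM) and Primed WT (115 ± 1.4) through siSPEN2 (109 ± 0.39), CRISPRi UT (108 ± 2.2), siScr (104 ± 1.4), XIST KO (97.8 ± 2.2), PXGL WT (95.4 ± 0.93) and siSPEN1 (87.2 ± 2.3) to XACT KO (71.0 ± 4.2) and NaiveCult WT (68.5 ± 4.2). The ranges of siSPEN2 and CRISPRi UT, of XIST KO and PXGL WT, and of the NaiveCult groups overlapped. The place of Primed WT depended on the scaling. On TMM-scaled CPM its STAT3 mean (98.2) was below those of siSPEN2 (115), siScr (111) and CRISPRi UT (110).

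SOCS3, which binds gp130 and JAKs and is induced by STAT3, and PIM1, a survival kinase gene that STAT3 also induces, went opposite ways between primed and naive cells. The upstream sequence of PIM1 is shown for that reason. It is the 250 bases before the gene start (GENCODE 44), on hg38 chr6:37169902-37170151, plus strand, written 5′ to 3′ in the direction of transcription.
PIM1: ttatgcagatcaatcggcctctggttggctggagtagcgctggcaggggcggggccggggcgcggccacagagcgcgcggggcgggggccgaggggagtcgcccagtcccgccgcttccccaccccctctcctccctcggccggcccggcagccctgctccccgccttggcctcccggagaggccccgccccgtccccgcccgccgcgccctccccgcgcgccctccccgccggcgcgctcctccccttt
The sequence is 79.6% G or C.

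SOCS3 (hg38 chr17:78356778-78360077, minus strand) spanned 13.2-fold. It was highest in Primed WT (59.2 ± 4.6 CPM), then in XACT KO (28.0 ± 5.7) and NaiveCult WT (25.1 ± 2.4), CRISPRi Dox (15.1 ± 2.2) and siScr (9.12 ± 0.62). siSPEN2 (7.44 ± 0.71), XIST KO (7.11 ± 0.75), CRISPRi UT (6.81 ± 0.47) and PXGL WT (6.40 ± 0.39) overlapped one after the other, and siSPEN1 (4.49 ± 0.88) was lowest. PIM1 (hg38 chr6:37170152-37175428, plus strand) was highest in NaiveCult WT (196 ± 24 CPM), XIST KO (178 ± 3.1) and PXGL WT (173 ± 0.67). XACT KO (162 ± 8.8), CRISPRi Dox (154 ± 5.4) and CRISPRi UT (150.5 ± 3.8) overlapped in turn, siSPEN1 (135 ± 5.0) and siSPEN2 (118 ± 4.7) came next, and siScr (103 ± 2.4) overlapped Primed WT (93.9 ± 6.8).

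SOCS2 (hg38 chr12:93569814-93583487, plus strand), an inhibitor best known from growth hormone signaling, was highest in NaiveCult WT (83.4 ± 4.3 CPM) and XACT KO (80.4 ± 3.0), and lowest in Primed WT (38.6 ± 1.5) and siScr (36.4 ± 1.3). CRISPRi Dox (63.4 ± 4.1), CRISPRi UT (57.3 ± 2.4), siSPEN1 (50.6 ± 1.2), siSPEN2 (49.9 ± 1.1), XIST KO (46.2 ± 0.89) and PXGL WT (42.1 ± 1.4) lay between, and of these neighbors siSPEN1 and siSPEN2 overlapped. GBX2 (hg38 chr2:236165236-236168386, minus strand), a homeobox gene that STAT3 induces in mouse embryonic stem cells, ranged from 1.34 ± 0.55 CPM in siScr and 1.76 ± 0.44 in NaiveCult WT to 4.25 ± 0.21 in PXGL WT. The PXGL WT range lay above all others, whereas XIST KO, siSPEN1, CRISPRi Dox and CRISPRi UT (2.86 to 3.46 CPM) overlapped in turn, as did siSPEN2, XACT KO, Primed WT, NaiveCult WT and siScr.

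Divided by exon length, PIM1 had the highest level of the 10 genes in all 10 groups, at 57.1 CPM per kb of exon in PXGL WT, 64.7 in NaiveCult WT and 30.98 in Primed WT. In PXGL WT it was followed by IL6R (28.3 CPM per kb) and IL6ST (23.6), and in NaiveCult WT by IL6ST (39.4) and IL6R (16.3). In Primed WT it was followed by SOCS3 (21.7), STAT3 (10.3) and LIFR (7.43), while IL6ST (2.79) was 7th and IL6R (0.933) last. LIFR was 9th of the 10 genes in PXGL WT (1.56 CPM per kb) and 8th in NaiveCult WT (5.97). Per kb, IL6ST was thus below LIFR in Primed WT and above it in the 9 naive groups.

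**Figure D2:**
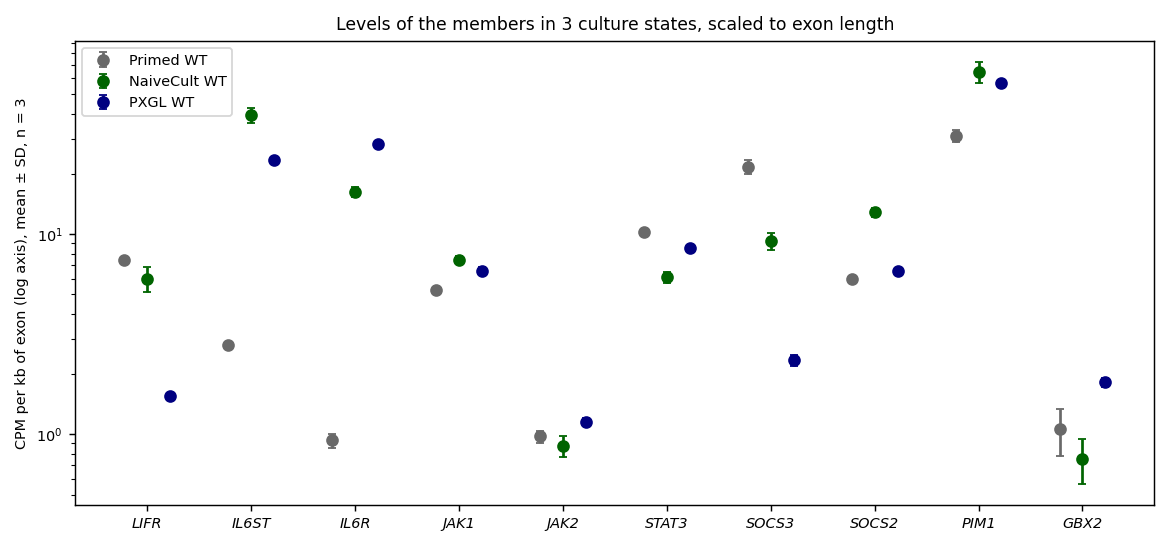
Mean CPM per kb of exon (log axis) with the SD of 3 libraries, for the 10 genes in Primed WT, NaiveCult WT and PXGL WT. IL6ST and IL6R are lower in Primed WT than in both naive states, and LIFR and SOCS3 are lowest in PXGL WT (1.56 and 2.34 CPM per kb).

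Naive and primed cells were compared to ask how the pathway differs between the pluripotent states. Upon resetting with NaiveCult, 5 of the 10 genes rose and 2 fell, where 42.5% of all genes tested passed as higher and 43.0% as lower. The median log2 fold change was 0.32 over the 10 genes and -0.01 over all genes. IL6ST was at 435, 514 and 477 CPM in NaiveCult WT and 32.3, 34.1 and 34.5 in Primed WT (log2 fold change 3.97, SE 0.06, adjusted p = 1.7e-15). IL6R was at 118, 107 and 116 CPM against 5.95, 6.63 and 6.99 (log2 fold change 4.27, SE 0.06, adjusted p = 7.4e-16). Neither range came near the other. SOCS2 (1.26, SE 0.06, adjusted p = 5.8e-11), PIM1 (1.22, SE 0.08, adjusted p = 4.1e-09) and JAK1 (0.65, SE 0.05, adjusted p = 3.5e-08) also rose. SOCS3 fell from 62.2, 61.6 and 53.9 CPM in Primed WT to 22.3, 26.5 and 26.5 in NaiveCult WT (log2 fold change -1.08, SE 0.08, adjusted p = 1.7e-08). STAT3 fell by 0.60 on the log2 scale (SE 0.05, adjusted p = 2.8e-08). LIFR had a log2 fold change of -0.16 (SE 0.08, adjusted p = 0.080) with ranges that did not overlap, and JAK2 (-0.01) and GBX2 (-0.32) did not pass. Scaling to library totals in place of TMM shifted the median of all genes to -0.17 in this comparison and to -0.24 in PXGL WT against Primed WT, and on that scale LIFR passed as lower (-0.31, adjusted p = 0.0026). It also passed without NaiveCult WT replicate 2 (-0.25, adjusted p = 0.0067).

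Against the same Primed WT libraries, PXGL WT had 7 of the 10 genes higher and 2 lower, where 43.1% of all genes passed as higher and 44.4% as lower. The medians were 0.49 over the 10 genes and -0.03 over all genes. The PXGL WT libraries carry another library code than the Primed WT and NaiveCult WT libraries, so the library series and the culture cannot be told apart here. IL6R was at 202, 194 and 199 CPM (log2 fold change 5.13, SE 0.06, adjusted p = 1.7e-16) and IL6ST at 286.9, 277 and 289.7 CPM (log2 fold change 3.29, SE 0.06, adjusted p = 7.0e-15). PIM1 (1.09, SE 0.08, adjusted p = 1.2e-08), GBX2 (1.00, SE 0.20, adjusted p = 3.4e-04), JAK1 (0.52, SE 0.05, adjusted p = 3.2e-07), JAK2 (0.46, SE 0.11, adjusted p = 0.0014) and SOCS2 (0.33, SE 0.06, adjusted p = 8.2e-05) were also higher. SOCS3 was at 6.83, 6.07 and 6.29 CPM (log2 fold change -3.00, SE 0.09, adjusted p = 6.4e-13), and LIFR at 19.2, 18.7 and 19.1 CPM against 92.7, 89.8 and 88.3 (log2 fold change -2.04, SE 0.09, adjusted p = 2.5e-11). For both genes every PXGL WT library lay below every Primed WT library. STAT3 did not pass (-0.07, SE 0.05, adjusted p = 0.18), although its ranges did not overlap. With library totals STAT3 passed as lower (-0.28, adjusted p = 1.1e-04) and JAK2 no longer passed (0.25, adjusted p = 0.052).

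The naive states differed from each other too, with the same limit on the library series and with libraries shared with the preceding comparisons. In PXGL WT against NaiveCult WT, 4 of the 10 genes were higher and 5 lower, where 35.7% and 34.9% of all genes passed. LIFR was at 60.8, 80.8 and 76.1 CPM in NaiveCult WT (log2 fold change -1.88, SE 0.09, adjusted p = 2.8e-10) and SOCS3 at 22.3, 26.5 and 26.5 CPM (log2 fold change -1.92, SE 0.09, adjusted p = 3.3e-10), both above every PXGL WT library. SOCS2 (-0.93, SE 0.06, adjusted p = 4.1e-09) and IL6ST (-0.69, SE 0.06, adjusted p = 9.3e-08) were lower in PXGL WT as well. JAK1 was also lower (-0.13, SE 0.05, adjusted p = 0.043), a call that was lost upon leaving out any PXGL WT library or NaiveCult WT replicate 2 (adjusted p from 0.075 to 0.28). GBX2 (1.32, SE 0.21, adjusted p = 6.8e-05), IL6R (0.86, SE 0.05, adjusted p = 4.0e-09), STAT3 (0.53, SE 0.05, adjusted p = 2.2e-07) and JAK2 (0.46, SE 0.11, adjusted p = 0.0020) were higher in PXGL WT. PIM1 was not called (-0.13, SE 0.08, adjusted p = 0.17), with ranges that did not overlap. Of the 8 fibroblast markers 2 were higher and 6 lower in PXGL WT, and their part in these differences was not tested.

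**Figure D3:**
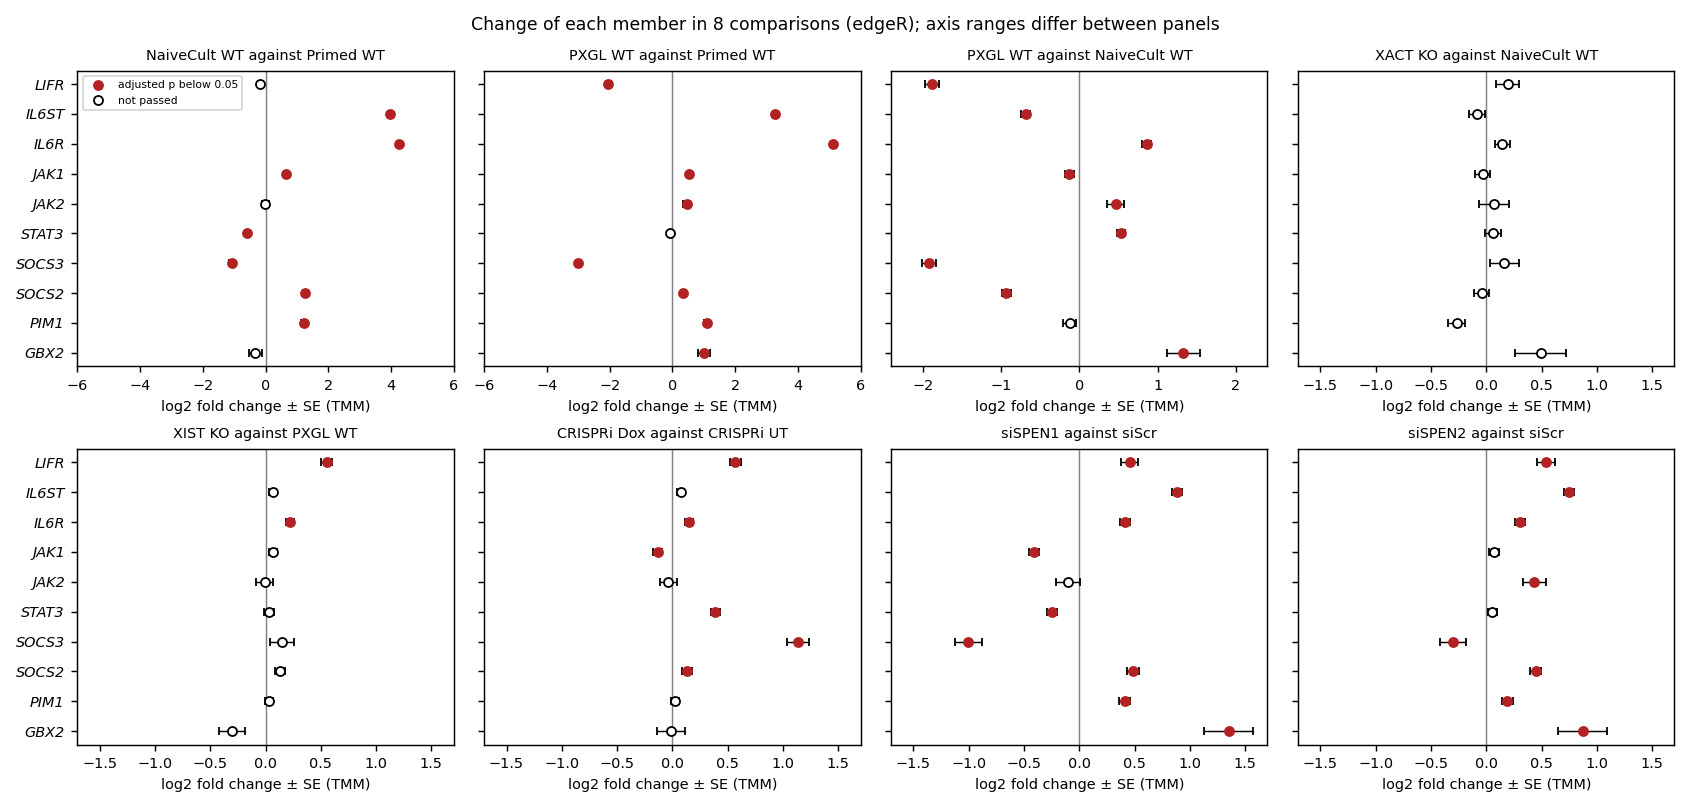
Each panel gives the log2 fold change with its SE (edgeR, TMM) of the 10 genes in 1 of 8 comparisons; red points passed (adjusted p below 0.05), open points did not, and the axis ranges differ between panels. IL6ST and IL6R reach 3.97 and 5.13 in naive against primed cells, LIFR is higher in both XIST-loss systems (0.55 and 0.57), and SOCS3 is higher in CRISPRi Dox (1.14) and lower in siSPEN1 (-1.003).

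The loss of XIST, the RNA that coats the X chromosome, was studied in 2 systems that share no control libraries. In XIST KO against PXGL WT, 2 of the 10 genes passed, both higher, where 6.94% of all genes passed as higher and 5.99% as lower. LIFR was at 27.8, 28.0 and 27.9 CPM against 19.2, 18.7 and 19.1 (log2 fold change 0.55, SE 0.05, adjusted p = 1.1e-07), and IL6R at 231, 236 and 227 against 202, 194 and 199 (log2 fold change 0.22, SE 0.04, adjusted p = 2.9e-04). Both receptor genes were higher in every knockout library than in any PXGL WT library. The untreated clones of the other system, CRISPRi UT, differed from PXGL WT as well. Their IL6R, at 241 to 248 CPM, was above every XIST KO library, and their LIFR, at 23.8 to 26.4 CPM, lay between PXGL WT and XIST KO. IL6ST (0.06, SE 0.03, adjusted p = 0.21), SOCS2 (0.13, SE 0.05, adjusted p = 0.088), PIM1 (0.03, SE 0.04, adjusted p = 0.62) and GBX2 (-0.30, SE 0.12, adjusted p = 0.10) did not pass, though their ranges did not overlap. In a fit of these 6 libraries alone IL6ST (adjusted p = 0.024) and SOCS2 (adjusted p = 0.0037) passed as well. JAK1, JAK2, STAT3 and SOCS3 had log2 fold changes from -0.01 to 0.15. The fibroblast markers summed to 158 to 162 CPM in XIST KO against 141 to 143 in PXGL WT, the primed markers to 130.4 to 132 against 139 to 148, and the trophectoderm markers to 372 to 377 against 385 to 394 CPM. Of 3 fibroblast markers tested 1 was higher and 0 lower. Of 4 primed markers 1 was higher and 2 lower, and of 7 trophectoderm markers 1 and 2. The part of the markers in these changes was not tested. All 3 XIST KO libraries are technical replicates of 1 clone, so their p-values, also in the comparison of the systems, rest on technical spread in that group, and the knockout and the clone cannot be told apart.

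In CRISPRi Dox against CRISPRi UT, 5 of the 10 genes were higher and 1 lower, where 20.7% and 18.9% of all genes passed. SOCS3 was at 17.5, 14.8 and 13.1 CPM with doxycycline and 7.36, 6.54 and 6.54 without (log2 fold change 1.14, SE 0.10, adjusted p = 2.3e-08). STAT3 was at 157, 138 and 134 CPM against 108, 106 and 110.4 (log2 fold change 0.39, SE 0.04, adjusted p = 6.1e-07), and LIFR at 38.7, 38.1 and 35.5 against 26.4, 23.8 and 24.6 (log2 fold change 0.57, SE 0.05, adjusted p = 1.8e-08). All 3 treated libraries were above all 3 untreated ones for each of these genes. IL6R rose less (0.15, SE 0.04, adjusted p = 0.0025), and IL6ST did not pass (0.07, SE 0.03, adjusted p = 0.072). SOCS2 rose (0.13, SE 0.05, adjusted p = 0.032) and JAK1 fell (-0.13, SE 0.04, adjusted p = 0.012) by small amounts. The call of JAK1 was lost without CRISPRi UT replicate 1 (adjusted p = 0.081) or CRISPRi Dox replicate 1 (0.075), and that of SOCS2 without CRISPRi UT replicate 1 (adjusted p = 0.072), CRISPRi UT replicate 2 (0.13) or CRISPRi Dox replicate 1 (0.16). This fit shares its spread with the technical replicates of XIST KO, and in a fit of the 6 CRISPRi libraries alone neither JAK1 (adjusted p = 0.053) nor SOCS2 (adjusted p = 0.087) passed. Marker sums moved with doxycycline too. The 8 naive markers summed to 2563 to 2706 CPM against 2895 to 2993, and the 6 hypoblast markers to 30.2 to 37.4 against 22.3 to 24.5. The 8 fibroblast markers summed to 112 to 118 against 157 to 170.1 CPM. Single naive and hypoblast markers went both ways. Of 8 naive markers tested 2 were higher and 3 lower, of 5 hypoblast markers 2 and 1, and of 3 fibroblast markers 0 and 2. The part of the markers in these changes was not tested.

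The difference between the systems was tested directly as the XIST KO effect minus the doxycycline effect. It passed for 3 of the 10 genes, where 21.8% of all genes passed in either direction: SOCS3 (-0.99, SE 0.15, adjusted p = 6.6e-05), STAT3 (-0.35, SE 0.06, adjusted p = 3.8e-04) and JAK1 (0.20, SE 0.06, adjusted p = 0.015). The LIFR effects were 0.55 and 0.57, and their difference was -0.02 (95% interval from -0.15 to 0.12 on the log2 scale). That of IL6R was 0.07 (from -0.03 to 0.17).

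SPEN, a protein that binds XIST and recruits repressors, was knocked down with either siRNA mix, and both knockdowns were set against the same siScr libraries. In siSPEN1, 6 of the 10 genes were higher and 3 lower, where 20.8% and 22.9% of all genes passed. In siSPEN2, 7 were higher and 1 lower, where 20.5% and 20.7% passed. IL6ST was at 208, 197 and 204 CPM in siScr, 359.6, 364.9 and 392 in siSPEN1 (log2 fold change 0.88, SE 0.05, adjusted p = 5.0e-12) and 329, 350.4 and 352 in siSPEN2 (log2 fold change 0.75, SE 0.05, adjusted p = 7.1e-11). LIFR was at 13.2, 14.2 and 14.2 CPM in siScr, 17.3, 18.6 and 20.6 in siSPEN1 (log2 fold change 0.45, SE 0.08, adjusted p = 8.1e-05) and 19.9, 19.2 and 21.7 in siSPEN2 (log2 fold change 0.54, SE 0.08, adjusted p = 1.0e-05). On the log2 scale, in siSPEN1 and siSPEN2 in turn, IL6R rose by 0.41 (SE 0.05, adjusted p = 3.1e-07) and 0.30 (SE 0.05, adjusted p = 1.9e-05). All 3 receptor genes were thus higher in every library of both knockdowns than in any siScr library. SOCS2 rose by 0.48 (SE 0.05, adjusted p = 1.7e-07) and 0.44 (SE 0.05, adjusted p = 6.2e-07), and PIM1 by 0.41 (SE 0.05, adjusted p = 7.3e-07) and 0.19 (SE 0.05, adjusted p = 0.0038). GBX2, with 0.880, 1.96 and 1.19 CPM in siScr, rose by 1.35 (SE 0.22, adjusted p = 3.8e-05) and 0.87 (SE 0.22, adjusted p = 0.0034), from counts of 37 to 95 per siScr library. In siScr all of these genes were below untransfected PXGL WT. Both knockdowns stayed below PXGL WT for PIM1 (135 and 118 against 173 CPM) and GBX2 (3.42 and 2.50 against 4.25). For LIFR their ranges overlapped it (18.8 and 20.3 against 19.0 CPM). For IL6ST, IL6R and SOCS2 both lay above PXGL WT (284.4, 198 and 42.1 CPM). The part of transfection was not tested.

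The kinases, STAT3 and SOCS3 separated the mixes. SOCS3 was at 8.40, 9.47 and 9.49 CPM in siScr, 5.16, 3.49 and 4.81 in siSPEN1 (log2 fold change -1.003, SE 0.12, adjusted p = 1.2e-06) and 6.96, 7.11 and 8.25 in siSPEN2 (log2 fold change -0.30, SE 0.12, adjusted p = 0.042). The call in siSPEN2 was lost without siScr replicate 2 (adjusted p = 0.12) or 3 (0.14), and without siSPEN2 replicate 1 (0.13) or 2 (0.14). JAK1 was at 98.9, 98.6 and 102 CPM in siScr, 75.0, 71.6 and 76.9 in siSPEN1 (log2 fold change -0.41, SE 0.05, adjusted p = 2.8e-07) and 106, 105 and 105 in siSPEN2 (log2 fold change 0.07, SE 0.04, adjusted p = 0.23). STAT3 fell in siSPEN1 (-0.25, SE 0.04, adjusted p = 9.5e-05) and was at 0.05 (SE 0.04, adjusted p = 0.35) in siSPEN2. JAK2 rose in siSPEN2 (0.43, SE 0.10, adjusted p = 0.0020) and was at -0.10 (SE 0.11, adjusted p = 0.48) in siSPEN1. Set directly against siSPEN1, siSPEN2 had 4 genes higher and 2 lower, where 18.3% and 16.3% of all genes passed. The higher ones were SOCS3 (0.70, SE 0.13, adjusted p = 1.7e-04), JAK2 (0.54, SE 0.11, adjusted p = 4.3e-04), JAK1 (0.48, SE 0.05, adjusted p = 4.7e-08) and STAT3 (0.30, SE 0.04, adjusted p = 1.4e-05), and the lower ones PIM1 (-0.22, SE 0.05, adjusted p = 0.0012) and IL6ST (-0.13, SE 0.05, adjusted p = 0.029). The IL6ST call was lost upon leaving out siSPEN1 replicate 2 or 3 or siSPEN2 replicate 1 or 2 (adjusted p from 0.059 to 0.11). IL6R (-0.11, SE 0.05, adjusted p = 0.074) and GBX2 (-0.48, SE 0.20, adjusted p = 0.077) did not pass, with ranges that did not overlap. LIFR differed by 0.09 (95% interval from -0.07 to 0.24) and SOCS2 by -0.04 (from -0.14 to 0.06). The 7 primed markers summed to 195 to 199.9 CPM in siScr, 110.0 to 115 in siSPEN1 and 143 to 147 in siSPEN2, and the 6 hypoblast markers to 49.6 to 52.8, 40.4 to 42.3 and 29.7 to 33.4 CPM. Of 4 primed markers tested, 0 were higher and 2 lower in siSPEN1. In siSPEN2 3 were higher and 1 lower, so most of them went against their sum there. Of 5 hypoblast markers tested, 0 were higher in either knockdown, and 2 were lower in siSPEN1 and 3 in siSPEN2. The 8 naive markers summed to 2803 to 2861 CPM in siScr, 3115 to 3271 in siSPEN1 and 2768 to 2924 in siSPEN2. Of them 5 were higher and 1 lower in siSPEN1, and 1 higher and 1 lower in siSPEN2. The 4 core pluripotency markers summed to 2637 to 2732, 2175 to 2439 and 2391 to 2472 CPM. Of these 2 were higher and 1 lower in siSPEN1, and 1 higher and 1 lower in siSPEN2. The part of the markers in the changes was not tested.

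XACT, a noncoding RNA found on active X chromosomes, was studied by its deletion in NaiveCult cells. None of the 10 genes passed in XACT KO against NaiveCult WT by edgeR, where 0.206% of all genes passed as higher and 0.219% as lower. At an unadjusted p below 0.05 there were 2 of the 10 genes, PIM1 and GBX2, beside 18.2% of all genes, and DESeq2 passed 1, PIM1. PIM1 was at 151, 165.3 and 168 CPM in XACT KO and 181, 224 and 183 in NaiveCult WT (log2 fold change -0.27, SE 0.08, adjusted p = 0.11). Its ranges did not overlap, and its adjusted p was 0.046 with DESeq2. The ranges of the other 9 genes overlapped, with log2 fold changes from -0.09 (IL6ST) to 0.49 (GBX2). The common biological coefficient of variation was 0.0842 in this fit against 0.0483 in that of the XIST systems.

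A list of 55 other genes of the pathway was followed beside the 10, of which 51 to 53 were tested. In PXGL WT against Primed WT, 35 of 53 were higher and 14 lower (median 0.96), beside 43.1% and 44.4% of all genes. In NaiveCult WT against Primed WT 31 were higher and 15 lower (median 0.46), beside 42.5% and 43.0%. By role, 12 of 18 other STAT3 targets were higher and 5 lower in PXGL WT, 7 of 10 inhibitors higher and 3 lower, 5 of 6 adaptors and phosphatases higher and none lower, 3 of 6 STATs higher and 3 lower, 2 of 4 receptors higher and 1 lower, 1 of 2 kinases higher and 1 lower, and 5 of 7 ligands higher and 1 lower. The leading targets were KLF4, a transcription factor gene of naive cells, at 464 ± 10.4 CPM in PXGL WT, 247 ± 13 in NaiveCult WT and 1.61 ± 0.21 in Primed WT, and KLF5, a related gene. KLF4 rose by 8.37 (SE 0.08, adjusted p = 2.6e-17) in PXGL WT and 7.40 (SE 0.08, adjusted p = 6.3e-17) in NaiveCult WT on the log2 scale, and KLF5 by 7.68 (SE 0.09, adjusted p = 6.9e-17) and 6.55 (SE 0.08, adjusted p = 2.1e-16). KLF4 and TFCP2L1, another of the listed STAT3 targets, are also among the naive markers. IER3, an early response gene, was lower in PXGL WT (-4.78, SE 0.20, adjusted p = 2.3e-11), and JAK3, a lymphoid kinase gene, fell in NaiveCult WT (-2.94, SE 0.17, adjusted p = 8.8e-10). STAT4, at 0.307 CPM in Primed WT, had 2 counts in PXGL WT and 3 in NaiveCult WT (CPM ratios 0.0402, interval 0.00473 to 0.153, and 0.0781, interval 0.0156 to 0.242; 95%, counting error only).

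The ligand genes differed in their levels. OSM, IL27 and CNTF had group means of at most 0.337 CPM. IL6, which encodes the ligand of IL6R, was at 11.6 ± 0.45 CPM in PXGL WT and 8.22 ± 0.68 in NaiveCult WT, while the 3 Primed WT libraries held 5 counts in all. The CPM ratio to Primed WT was 389 in PXGL WT (95% interval 166 to 1200.0, counting error only) and 275 in NaiveCult WT (117 to 848). Feeders and state cannot be told apart in these ratios. In both XIST-loss systems IL6 fell, from 11.6 ± 0.45 to 5.83 ± 0.40 CPM in XIST KO (-0.996, SE 0.14, adjusted p = 4.7e-05) and from 6.31 ± 1.0 to 1.91 ± 0.63 CPM with doxycycline (-1.76, SE 0.17, adjusted p = 6.7e-08), and the effects differed (0.76, SE 0.22, adjusted p = 0.018). The controls differed too, since IL6 in CRISPRi UT was near its level in XIST KO, and in siScr it was at 3.87 ± 0.43 CPM. LIF was at 12.3 ± 1.7 CPM in Primed WT, 29.6 ± 1.5 in PXGL WT and 24.4 ± 1.2 in siScr, and rose to 37.1 ± 1.3 in siSPEN1 (0.62, SE 0.06, adjusted p = 1.1e-07) and to 39.5 ± 2.8 in siSPEN2 (0.69, SE 0.06, adjusted p = 2.8e-08). It was slightly higher in XIST KO (0.18, SE 0.05, adjusted p = 0.026) and lower in CRISPRi Dox (-0.28, SE 0.05, adjusted p = 3.8e-04).

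**Figure D4:**
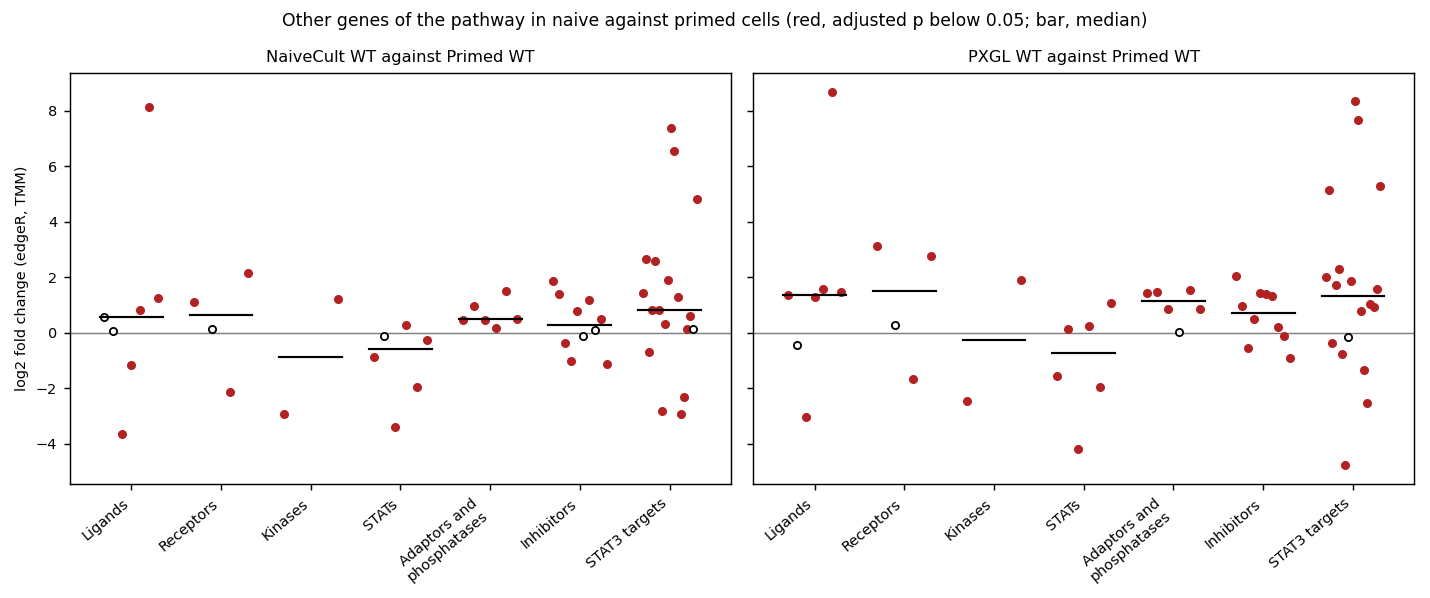
Log2 fold changes (edgeR, TMM) of the other genes of the pathway in NaiveCult WT and PXGL WT against Primed WT, grouped by role; each point is 1 gene, red points passed (adjusted p below 0.05) and bars are medians. Of 53 genes, 31 are higher and 15 lower in NaiveCult WT, and 35 and 14 in PXGL WT.

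Between PXGL WT and NaiveCult WT 32 of the 53 were higher and 9 lower in PXGL WT, beside 35.7% and 34.9% of all genes. The largest rises were those of BCL3 (2.49, SE 0.13, adjusted p = 8.3e-10), a transcriptional coregulator gene, of the ligand gene CTF1 (2.47, SE 0.29, adjusted p = 3.7e-06) and of the receptor gene CNTFR (2.01, SE 0.27, adjusted p = 1.5e-05). Among the falls were those of IER3 (-1.96, SE 0.22, adjusted p = 2.2e-06) and FOS (-1.58, SE 0.18, adjusted p = 3.3e-06).

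Upon loss of XIST, 6 of 51 pathway genes were higher and 4 lower in XIST KO, beside 6.94% and 5.99% of all genes. In CRISPRi Dox 11 were higher and 12 lower, beside 20.7% and 18.9%, shares near those of all genes. OSMR, which encodes the oncostatin M receptor that pairs with gp130, rose most in XIST KO (0.67, SE 0.05, adjusted p = 1.5e-08), followed by CNTFR (0.66, SE 0.17, adjusted p = 0.012). CNTFR fell with doxycycline (-0.46, SE 0.18, adjusted p = 0.047), and its effects differed between the systems (1.12, SE 0.25, adjusted p = 0.0026). PIM2, an X-linked paralog of PIM1, rose by 0.38 (SE 0.04, adjusted p = 2.1e-07) in XIST KO and 0.66 (SE 0.04, adjusted p = 3.5e-11) in CRISPRi Dox. SOCS1 (-0.18, SE 0.05, adjusted p = 0.017) and PIAS3 (-0.14, SE 0.04, adjusted p = 0.032), which encode inhibitors, were slightly lower in XIST KO. JAK3 (0.72, SE 0.15, adjusted p = 6.1e-04) and CTF1 (0.66, SE 0.20, adjusted p = 0.012) rose with doxycycline, while IL11 (-0.83, SE 0.10, adjusted p = 1.7e-06), a ligand gene, and MYC (-0.80, SE 0.10, adjusted p = 3.3e-06) fell.

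Upon SPEN knockdown, 13 of 51 were higher and 18 lower in siSPEN1, beside 20.8% and 22.9% of all genes. In siSPEN2 13 were higher and 12 lower, beside 20.5% and 20.7%, again near the shares of all genes. In siSPEN1 the higher genes included IER3 (0.67, SE 0.22, adjusted p = 0.017) and SOCS4, an inhibitor gene at 309 ± 7.5 CPM against 165.4 ± 4.9 (0.91, SE 0.05, adjusted p = 2.0e-12), with CTF1 (-0.99, SE 0.32, adjusted p = 0.015), IRF1 (-0.67, SE 0.10, adjusted p = 1.9e-05) and FOS (-0.59, SE 0.09, adjusted p = 1.1e-05) lower. In siSPEN2 IL11 (0.77, SE 0.10, adjusted p = 4.4e-06), BCL3 (0.69, SE 0.11, adjusted p = 2.3e-05) and LIF led the rises, and the adaptor gene GAB1 (-0.75, SE 0.05, adjusted p = 2.6e-10), STAT6 (-0.51, SE 0.06, adjusted p = 4.3e-07) and IRF1 (-0.41, SE 0.10, adjusted p = 0.0022) the falls. Of 5 STATs tested beside STAT3, 4 were lower and 1 higher in siSPEN1, and 3 lower and 1 higher in siSPEN2. Of 52 pathway genes tested in XACT KO, none passed by edgeR, 11 had an unadjusted p below 0.05 (beside 18.2% of all genes), and DESeq2 passed 2.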

How the data were processed

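RNA sequencing of H9 cells gave 30 libraries in 10 groups of 3. The authors deposited raw counts per gene and library, without normalization. Per their methods, the authors trimmed reads with Trim Galore 0.6.5, mapped them with Bowtie 2 to the human and mouse genomes, removed duplicates with Picard 2.23.5, removed mouse feeder reads with XenofilteR and counted exonic reads by strand with HTSeq 0.13.5. Reads shared by overlapping genes or near-identical copies (IL6ST, IL6R and SOCS2 have pseudogenes) can be lost, and the species filter can lose human or retain mouse reads.

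The count tables were tested with the quasi-likelihood F-test of edgeR 4.0.16 (R 4.3.3, TMM factors, Benjamini-Hochberg adjustment) in 4 fits of 12, 9, 6 and 9 libraries (17286, 16448, 16472 and 18663 genes after filterByExpr with a minimum count of 10 and minimum total of 15). The fits held PXGL WT, XIST KO and both CRISPRi groups; the siRNA groups; NaiveCult WT and XACT KO; and PXGL WT, NaiveCult WT and Primed WT. The edgeR step was tested on simulated data. Some genes and sequences are not reported here. The members and lists were chosen with earlier results of these data known. Fold changes are printed for members that passed or whose group ranges did not overlap, and for up to 3 pathway genes per direction, by size, with a few others followed across groups after their values were seen. The 95% intervals are the estimate ± 1.96 SE. The study describes its RNA-seq replicates as biological, except in XIST KO, where they are technical, so p-values against XIST KO rest in part on technical spread. No pair of libraries of a group agreed within sampling noise. The main fits did not pair libraries. The CRISPRi groups are the same 3 clones without and with doxycycline, but the sample titles do not say which libraries share a clone. Alternatives were other size factors, filters, DESeq2 1.42.0, other sets of libraries, a replicate block and leaving out each library.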

Additional observations from a re-analysis of the deposited data

Results flagged for a closer look

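Effects that differed between the systems of XIST loss by the interaction term of edgeR were those of SOCS3 (-0.99 on the log2 scale, XIST KO effect minus doxycycline effect), STAT3 (-0.35) and JAK1 (0.20). The JAK1 effect was 0.07 in XIST KO and -0.13 with doxycycline, and the call of the second was lost without CRISPRi UT replicate 1 or CRISPRi Dox replicate 1.

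Effects that differed between the SPEN siRNA mixes, which share their controls, were tested as siSPEN2 against siSPEN1. The differences were 0.70 for SOCS3, 0.54 for JAK2, 0.48 for JAK1, 0.30 for STAT3, -0.22 for PIM1 and -0.13 for IL6ST (log2 scale). Groups of 3 were not examined for single outlying libraries.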

How the results depend on the processing

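The number of the 10 genes that passed stayed within 1.5 times its main value in all but 3 settings. In XIST KO against PXGL WT it was 4 in place of 2 with only the 6 libraries compared, and in XACT KO against NaiveCult WT it was 1 in place of 0 with DESeq2 and 1 without a filter on low counts. Of 782 alternative fold changes of genes that had passed, 24 no longer passed and none changed sign; of 568 that had not passed, 15 passed and 36 changed sign. On TMM-scaled CPM 32 of 100 group levels moved by more than 1 SD. The order of groups changed for some genes, such as STAT3, and LIFR in XACT KO (81.1) came above Primed WT (76.8). Over all genes, 2235 passed in XIST KO, 1482 without XIST KO replicate 2 and 4376 with only the 6 libraries; in XACT KO 70 passed, 762 without a filter, 702 with DESeq2, 551 with the replicate block and 0 to 447 when 1 library was left out. The cause was not tested.

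Libraries with the same replicate number deviated together little or not at all (correlations from -0.068 to 0.070 over all comparisons). The highest was in siSPEN2 against siSPEN1 (0.034 to 0.070), where each library was most like the one with its own number. With the replicate block JAK1 in PXGL WT against NaiveCult WT no longer passed (-0.13, adjusted p = 0.071), which left 8 members in place of 9, and no other member call changed. GBX2, with the fewest counts per library, had the largest SE of the members in every comparison. SOCS3 or JAK2 came next.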

Other observations

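Among the 10 genes, the patterns over the 10 group means (log2 of TMM-scaled CPM + 1) fell into like and unlike pairs. LIFR and SOCS3 had a Pearson r of 0.90, IL6ST and IL6R 0.89 and IL6ST and PIM1 0.83, whereas IL6R and SOCS3 had -0.80. Among 16161 genes, the patterns most like LIFR were those of CAMK2D (0.980) and CMC4 (0.979). For IL6ST they were UBL4A (0.992) and CLPP (0.991), and for IL6R CD320 (0.998) and RAB15 (0.998). JAK1 was most like MAP3K2 (0.977) and GEMIN5 (0.965), JAK2 like QKI (0.974) and SH2D3C (0.943) and STAT3 like MYORG (0.976) and ECE1 (0.963). SOCS3 was most like ETFA (0.994) and CREG1 (0.987), SOCS2 like JAM3 (0.972) and UAP1 (0.969), PIM1 like NR2C1 (0.970) and PDIA4 (0.962) and GBX2 like LUC7L (0.887) and STX2 (0.883). Each r is over 10 group means of 1 cell line, 7 of them in PXGL medium and 2 in NaiveCult, with some groups in other library series, and is a description only.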
